A study of Homo sapiens with 12 samples.

Results

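The genes described are 41 interferon-stimulated and MHC class I genes, chosen by their known function from a list of symbols and found among the 23459 genes of the count table. The genes were chosen with earlier results of these data known. They were read from RNA sequencing of the human breast epithelial line MCF10A, which does not form tumours, in 4 groups of 3 libraries. All 4 groups carried a doxycycline-inducible allele of YAP5SA, a form of the coactivator YAP that the Hippo kinases cannot restrain, and all had been infected with a vector. The groups were empty vector with the solvent ethanol (vector EtOH), empty vector with 100 ng/ml doxycycline (vector Dox), JUN overexpression vector with ethanol (JUN EtOH) and JUN overexpression vector with doxycycline (JUN Dox). No group received doxycycline without the YAP5SA allele, so the effects of YAP5SA and of doxycycline itself cannot be told apart. Induction of YAP5SA in these cells was for 16 h before analysis.

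Interferons are secreted proteins that warn cells of virus. Type I and type III interferons signal through their receptors and the kinases JAK1 and TYK2 to a complex that holds STAT2 and IRF9 and binds interferon-stimulated response elements (ISRE) in promoters and raises antiviral genes, while interferon gamma acts on GAS elements and through IRF1. Epithelial cells express many of these genes at a low tonic level without infection, and they use the same system to raise the MHC class I molecules that show peptides to T cells. The genes are taken here in the order of the pathway: RNA sensors, transcription factors, antiviral effectors and antigen presentation, followed by the ligands, receptors and other pathway genes.

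Total counts were between 18594867 and 28993487 per library, and CPM stands for counts scaled to a common library size with TMM factors. JUN was at 47.6 ± 10.54 CPM (mean ± SD, n = 3) in vector EtOH and 189.7 ± 4.15 in vector Dox. With the JUN vector it was at 1279 ± 187 CPM under EtOH and 1248 ± 92.3 under Dox, so that the JUN vector libraries matched their labels. YAP1 was at 179 ± 10.55, 237 ± 31.5, 234 ± 20.9 and 279.9 ± 79.3 CPM in the same order, and its difference between vector Dox and vector EtOH did not pass the test (edgeR, adjusted p = 0.0819). Among marker lists, the 8 basal epithelial markers summed to 7579 to 8009 CPM in vector EtOH and 4004 to 5048 in vector Dox. They summed to 5869.6 to 7463 CPM in the EtOH libraries with JUN and to 3559.8 to 5600.4 in those with Dox. In the same order of groups the 5 luminal markers summed to 1267 to 1459, 1514 to 1529, 699 to 919.9 and 501 to 871 CPM. Among leukocyte markers, PTPRC, CD3E, MS4A1 and NKG7 had at most 3 counts in every library, whereas the sum over the list of 8, which includes CD14, CD68 and ITGAM, was 54.2 to 59.1, 23.0 to 24.3, 87.3 to 102.7 and 52.2 to 72.5 CPM. The fibroblast list summed to 111 to 125, 122 to 162, 112 to 126 and 125 to 139 CPM, and the endothelial list to at most 2.196 CPM in any library. The part of these marker shifts in the results below was not tested. In these bulk libraries, fewer cells with a transcript and less of it per cell cannot be told apart.

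Of the 41 genes, 37 passed the filter on low counts and were tested with edgeR's quasi-likelihood model over all 14775 tested genes. The other 4 were OAS2 with 90 counts over the 12 libraries, RSAD2 with 19, MX2 with 9 and XAF1 with 4. The antiviral GTPase MX2, the radical enzyme viperin (RSAD2) and the apoptosis factor XAF1 were thus near or below the floor of 3 counts, which was worth 0.107 to 0.150 CPM in a library. Another annotated gene on the same strand overlaps the exons of 8 of the 41 genes, by 4471 bases in DDX58, 2023 in TAP2, 1544 in IRF9 and 1421 in HLA-B, and by 174 to 524 bases in IFIT2, IFITM1, IFI6 and PSMB9. Reads there can belong to either gene, so that the levels of these 8 are uncertain. Levels per length spanned a wide range. Per kilobase of the reference transcript, the MHC class I heavy chain HLA-B had 553 CPM and its light chain B2M 465, tetherin (BST2) had 92.7, and MX1 had 0.237, as means over the 12 libraries. Antigen presentation transcripts were abundant in these cells, and those of several classical interferon-induced genes were sparse.

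Of the 41 genes, 34 have a promoter in the RefSeq promoter table (GRCh38.p14), a window of 250 bases before to 50 bases after the start. The letters of an ISRE core, GAAA and GAAA again with any 2 bases between them on either strand, occurred in the windows of 20 of these 34 genes (58.8%) and in 996 of all 27305 promoters (3.65%). A GAS pattern, TTCNNNGAA, occurred in 8 of 34 (23.5%) against 7.88% of all promoters, and overlapped an ISRE core in IFI27, IFITM1 and BST2. The AP-1 pattern TGANTCA, the kind of site that JUN dimers bind, occurred in 2 of 34 (5.88%, IFIT5 and ISG20) against 7.76%, and the TEAD pattern GGAATG, through which YAP reaches DNA, in 6 of 34 (17.6%) against 14.0%. Of the 17 genes with a promoter that were lower on induction in vector cells, 10 held the ISRE core (58.8%), as did 3 of the 7 MHC class I genes (42.9%). The TEAD letters occurred in 5 of those 17 (29.4%), in 4 of the 9 called higher with JUN in either JUN comparison (44.4%) and in 0 of the 7 called lower, and the GAS letters in 6 of the 17 (35.3%), 3 of the 9 (33.3%) and 3 of the 7 (42.9%). These subsets were chosen by calls in the same libraries, are small and were not tested. Such matches describe letters and not bound sites. The 250 upstream bases are shown for the 4 most abundant genes that were called in a JUN comparison and hold an ISRE core, with the core in capitals, and for HLA-B and B2M, which passed no test in any comparison. HLA-B held no such letters, B2M held 2 overlapping cores, and in IFITM1 another match runs across the start and is not in the stretch shown.
TAP1, chr6:32853705-32853954, minus strand: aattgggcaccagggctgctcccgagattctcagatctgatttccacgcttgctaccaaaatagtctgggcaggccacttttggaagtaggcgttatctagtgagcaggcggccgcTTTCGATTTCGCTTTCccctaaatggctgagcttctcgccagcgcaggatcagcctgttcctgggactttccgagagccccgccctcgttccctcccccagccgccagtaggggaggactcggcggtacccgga
SAMD9, chr7:93117980-93118229, minus strand: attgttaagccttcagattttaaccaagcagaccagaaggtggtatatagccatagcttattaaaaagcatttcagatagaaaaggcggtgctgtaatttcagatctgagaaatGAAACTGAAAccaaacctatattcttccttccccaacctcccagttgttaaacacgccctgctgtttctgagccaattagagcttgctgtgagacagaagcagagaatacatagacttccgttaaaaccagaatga
IFIT3, chr10:89327747-89327996, plus strand: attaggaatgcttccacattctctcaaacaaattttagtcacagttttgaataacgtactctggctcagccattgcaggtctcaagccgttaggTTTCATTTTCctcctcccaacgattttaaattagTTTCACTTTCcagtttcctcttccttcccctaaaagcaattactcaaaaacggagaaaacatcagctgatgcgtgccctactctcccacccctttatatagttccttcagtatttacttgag
IFITM1, chr11:313790-314039, plus strand: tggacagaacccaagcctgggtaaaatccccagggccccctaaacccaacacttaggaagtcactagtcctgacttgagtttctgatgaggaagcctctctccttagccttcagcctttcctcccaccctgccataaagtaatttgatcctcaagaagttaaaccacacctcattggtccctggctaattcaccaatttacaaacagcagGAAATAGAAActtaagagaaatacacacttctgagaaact
HLA-B, chr6:31357180-31357429, minus strand: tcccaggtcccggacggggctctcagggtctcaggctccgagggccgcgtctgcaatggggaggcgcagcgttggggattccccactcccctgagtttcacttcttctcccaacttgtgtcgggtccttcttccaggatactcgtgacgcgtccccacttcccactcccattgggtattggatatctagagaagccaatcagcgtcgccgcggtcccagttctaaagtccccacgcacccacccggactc
B2M, chr15:44711267-44711516, plus strand: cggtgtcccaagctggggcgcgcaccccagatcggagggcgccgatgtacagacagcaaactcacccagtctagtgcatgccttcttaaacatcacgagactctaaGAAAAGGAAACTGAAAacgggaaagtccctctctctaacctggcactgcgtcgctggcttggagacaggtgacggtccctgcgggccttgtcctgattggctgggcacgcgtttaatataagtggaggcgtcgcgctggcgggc

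YAP5SA induction in vector cells went with lower levels of most antiviral effector genes. At an adjusted p under 0.05, 21 of the 37 genes were called, 2 higher and 19 lower. Of all the tested genes 30.1% were called, 15.6% as higher and 14.4% as lower, and among the 37 genes 51.4% were lower. Their median log2 fold change was -0.53, against 0.01 over all genes tested. Since the genes were chosen with earlier results of these data known, these shares describe the list, and no test was made over it. The genes called higher were IFIT5 and TAP2. MX1, ISG20 and IFI27 had a mean under 0.5 CPM in vector Dox and could enter the test through their other groups, and of the remaining 34 genes 17 were called lower. DESeq2 called 22 genes, 2 higher and 20 lower, against 30.2% of all genes with 15.4% higher and 14.7% lower.

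Induction in JUN cells lowered a shorter list. There, 14 of 37 genes were called, 2 higher and 12 lower, against 21.4% called over all genes with 11.2% higher and 10.3% lower. The median was -0.36 against 0.00 over all genes. With upper-quartile scaling 15 genes were called, 0 higher and 15 lower, and USP18 and IFIT5 were no longer called. DESeq2 called 18, 2 higher and 16 lower, against 22.0% of all genes with 11.2% higher and 10.9% lower. The number called depended on single libraries, with 9 called without JUN EtOH replicate 1, 7 without JUN EtOH replicate 2 and 9 without JUN Dox replicate 2, all of them lower. These 2 inductions were made in separate libraries, and the comparison between them is given at the end.

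JUN overexpression moved genes both ways. In JUN EtOH against vector EtOH, 13 of 37 genes were called, 8 higher and 5 lower, a share of 35.1% that was near the 39.0% called over all genes (20.1% higher, 18.9% lower), and the median was -0.02 against 0.00. DESeq2 called 12, 7 higher and 5 lower, against 38.8% of all genes with 19.7% higher and 19.1% lower. Of the 34 genes other than MX1, ISG20 and IFI27, 6 were called higher and 5 lower. Without vector EtOH replicate 2 the number by edgeR was 8, and without JUN EtOH replicate 1 it was 7. In JUN Dox against vector Dox, 14 of 37 were called, 8 higher and 6 lower, again near the background of 35.6% (18.4% higher, 17.2% lower), with a median of 0.09 against 0.00. Among those 34 genes 7 were called higher and 6 lower. DESeq2 called 14, 8 higher and 6 lower, against 37.1% of all genes with 18.6% higher and 18.5% lower. The counts of genes called with JUN, near the background, are no result about the list as a whole, and the individual genes are described one by one. The pairwise comparisons share groups and are not independent of each other.

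**Figure D1:**
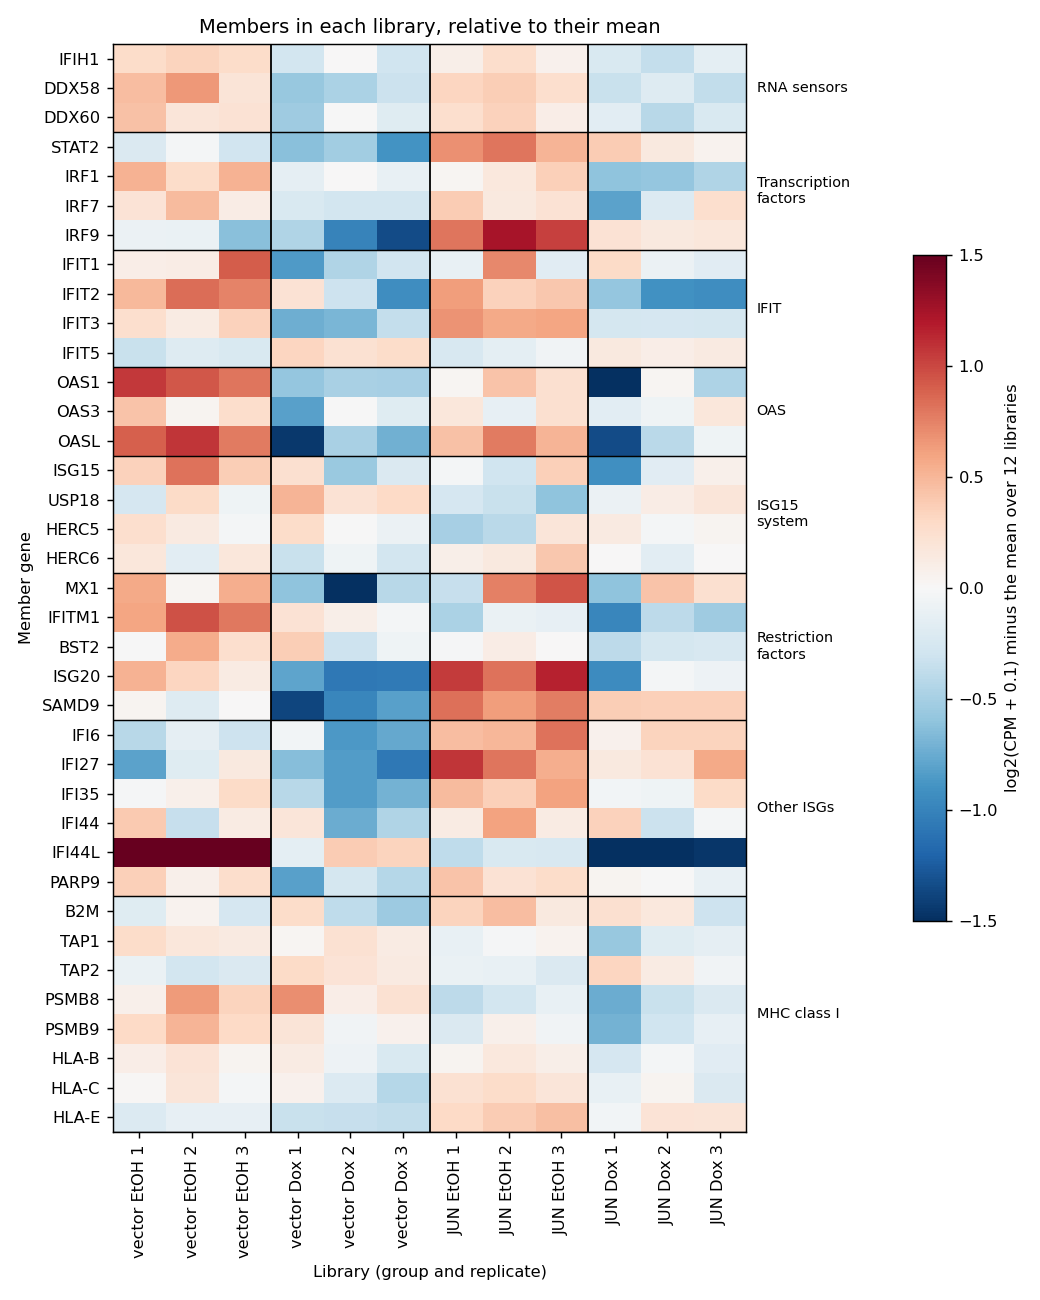
Each cell gives log2(CPM + 0.1) of 1 of the 37 tested genes (rows, grouped by role) in 1 of the 12 libraries (columns), minus the mean of that gene over the libraries, with the colour scale ending at -1.5 and 1.5. The vector Dox columns are mostly below the mean for the sensor, IFIT and OAS genes, with IFIT5 above it. IRF9 and SAMD9 are highest in JUN EtOH, and IFI44L is highest in vector EtOH and lowest in JUN Dox.

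The 3 RNA sensors fell on induction in both backgrounds and did not pass the test with JUN. DDX58, which encodes the RNA sensor RIG-I, lies at chr9:32455300-32526206 (GRCh37, as are all gene positions given here). It was at 12.9, 14.7 and 10.7 CPM in vector EtOH and 6.24, 6.67 and 7.44 in vector Dox. In JUN cells DDX58 was at 11.66, 12.1 and 11.1 CPM with EtOH and 7.37, 8.17 and 7.21 with Dox. Every Dox library was below every EtOH library of the same vector, and the JUN and vector groups of the same treatment overlapped. The decrease was a log2 fold change of -0.91 (SE 0.14, adjusted p = 0.000145) in vector cells, and a log2 fold change of -0.61 (SE 0.14, adjusted p = 0.00467) in JUN cells.

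IFIH1, which encodes MDA5, the sensor of long double-stranded RNA, had the highest level per length of the 3 sensors (3.99 CPM per kilobase). It was at 17.1, 17.8 and 17.1 CPM in vector EtOH and 11.6, 14.2 and 11.4 in vector Dox. In JUN cells IFIH1 was at 14.96, 16.9 and 14.8 CPM with EtOH and 12.04, 10.98 and 12.7 with Dox. It fell on induction in both backgrounds without overlap of the EtOH and Dox groups, with a log2 fold change of -0.48 (SE 0.12, adjusted p = 0.00567) in vector cells and a log2 fold change of -0.39 (SE 0.12, adjusted p = 0.0283) in JUN cells. DDX60, a helicase that assists RIG-I, went from 13.2 ± 1.28 to 9.24 ± 1.70 CPM in vector cells (log2 fold change -0.51, SE 0.15, adjusted p = 0.0148) and from 12.7 ± 1.08 to 8.99 ± 0.821 in JUN cells (log2 fold change -0.50, SE 0.15, adjusted p = 0.0225). In JUN cells the calls of IFIH1 and DDX60 were each lost without JUN EtOH replicate 1 or 2 or JUN Dox replicate 2 (adjusted p up to 0.128 and 0.0993), and that of DDX60 in vector cells without vector EtOH replicate 1 (adjusted p = 0.0726). With JUN, 0 of the 3 sensors were called by edgeR or DESeq2 in either comparison, and 0 had an unadjusted p under 0.05. Over all genes edgeR called 39.0% in uninduced and 35.6% in induced cells, so 0 of 3 is no result about the sensors.

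Of the transcription factors, STAT2 and IRF9, parts of the ISRE-binding complex, were both higher with JUN and lower with induction. STAT2 (chr12:56735381-56753987) was at 13.5, 15.4 and 12.8 CPM in vector EtOH and 25.2, 27.5 and 22.4 in JUN EtOH. It was at 10.1, 10.9 and 8.39 CPM in vector Dox and 20.4, 17.3 and 16.2 in JUN Dox. All JUN libraries were above all vector libraries, whatever the treatment. With JUN the change was a log2 fold change of 0.85 (SE 0.13, adjusted p = 0.000184) without induction and a log2 fold change of 0.87 (SE 0.14, adjusted p = 0.000186) with induction. On induction STAT2 fell in vector cells (log2 fold change -0.50, SE 0.14, adjusted p = 0.0119) and in JUN cells (log2 fold change -0.48, SE 0.13, adjusted p = 0.0157), but the first call was lost without vector EtOH replicate 2 or vector Dox replicate 3 (adjusted p up to 0.0634) and the second without JUN EtOH replicate 2 or JUN Dox replicate 2 or 3 (up to 0.0827).

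IRF9 (chr14:24630443-24637252) was at 5.36, 5.29 and 3.63 CPM in vector EtOH and 4.14, 2.79 and 2.19 in vector Dox. In JUN cells IRF9 was at 9.99, 13.5 and 11.69 CPM with EtOH and 6.62, 6.31 and 6.40 with Dox. The JUN groups stood above the vector groups without overlap, and the EtOH and Dox libraries of the vector cells overlapped. JUN raised it without induction (log2 fold change 1.30, SE 0.21, adjusted p = 0.000215) and with it (log2 fold change 1.08, SE 0.22, adjusted p = 0.00153). The decrease on induction was a log2 fold change of -0.86 (SE 0.20, adjusted p = 0.00637) in JUN cells. In vector cells it was a log2 fold change of -0.65 (SE 0.22, adjusted p = 0.0389), a call that was lost with only those 2 groups fitted and without vector EtOH replicate 1 or 2, vector Dox replicate 2 or 3, JUN EtOH replicate 3 or JUN Dox replicate 2 (adjusted p up to 0.164).

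IRF1, the interferon gamma-induced factor that acts on antigen presentation genes, behaved unlike its relative IRF9 and had the highest level per length of the 4 factors. It was at 24.2, 20.3 and 24.2 CPM in vector EtOH and 15.2, 16.9 and 15.5 in vector Dox. In JUN cells IRF1 was at 17.2, 18.8 and 21.5 CPM with EtOH and 11.04, 11.2 and 12.2 with Dox. Induction lowered it in vector cells (log2 fold change -0.53, SE 0.12, adjusted p = 0.00283) and in JUN cells (log2 fold change -0.74, SE 0.12, adjusted p = 0.000424), and among induced cells it was lower with JUN (log2 fold change -0.47, SE 0.12, adjusted p = 0.00703). IRF1 shares 2805 exon bases with the antisense gene IRF1-AS1, whose reads cannot be told from its own if the counting did not use strand. IRF7, the factor that amplifies type I interferon, was at 6.04 ± 0.841, 4.14 ± 0.0778, 5.95 ± 0.510 and 4.37 ± 1.58 CPM with the groups in the order given for YAP1, and passed no test.

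**Figure D2:**
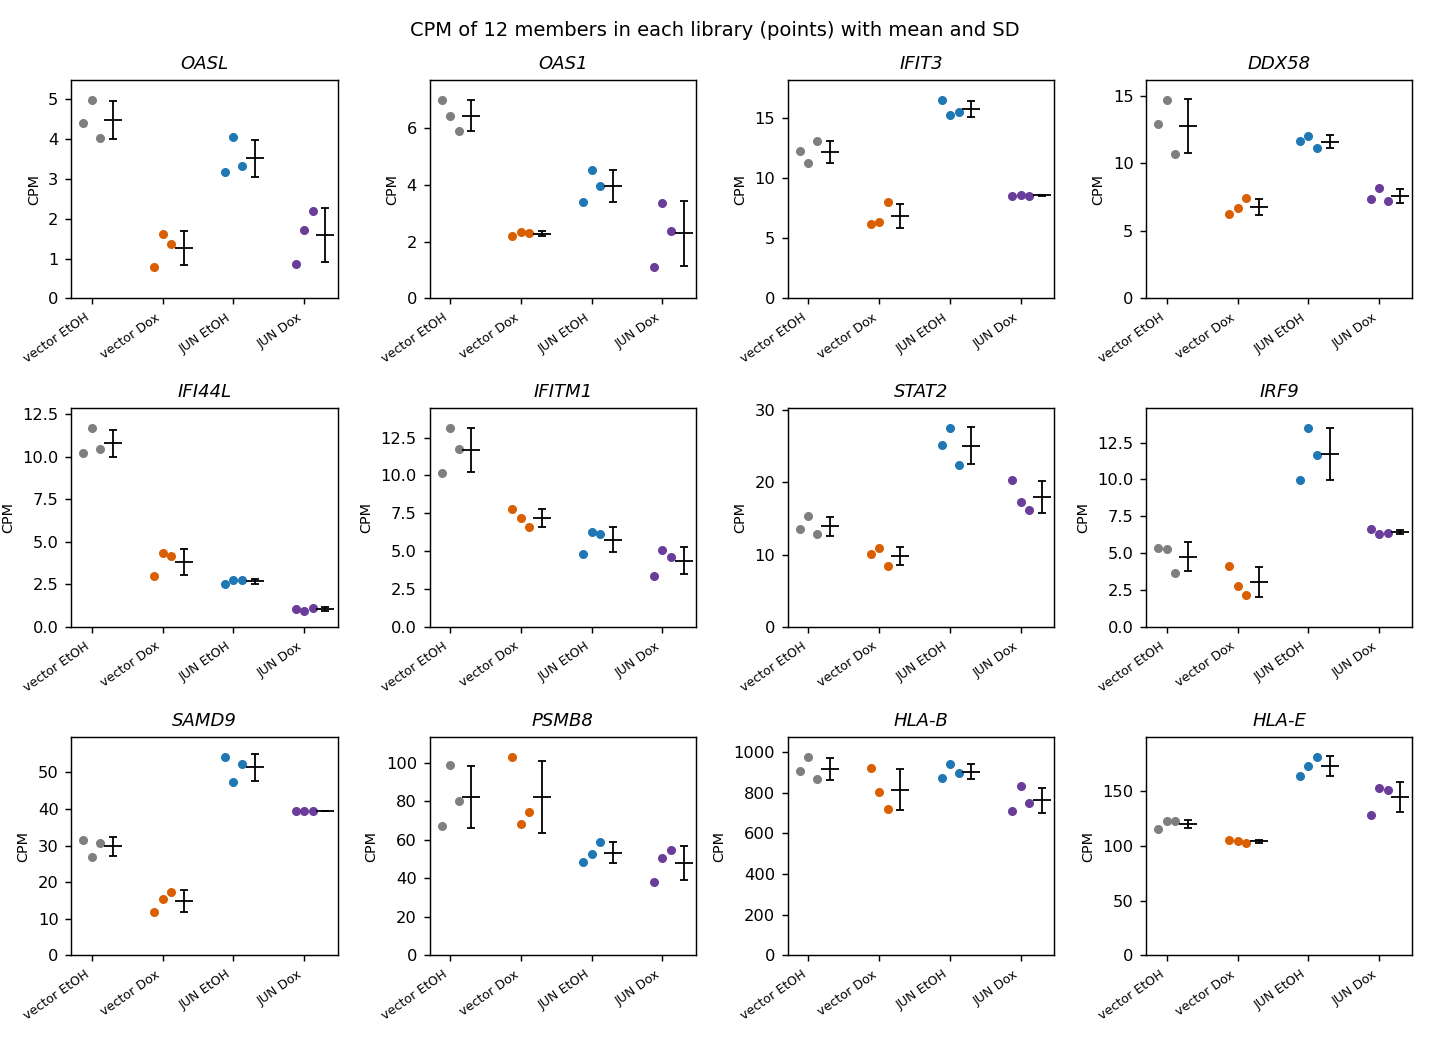
CPM of 12 of the genes in each of the 12 libraries (points, coloured by group, each panel starting at 0), with the mean and SD of the 3 libraries of a group as a bar. OASL, OAS1, IFIT3 and DDX58 are lower in vector Dox than in vector EtOH without overlap, IFI44L steps down from group to group, STAT2, IRF9 and SAMD9 are higher in the JUN groups, and HLA-B overlaps between vector EtOH and vector Dox.

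The IFIT genes, RNA-binding effectors that lie together on chromosome 10, split into 3 that fell with induction and 1 that rose. IFIT3 (chr10:91087064-91137230), the partner that stabilises IFIT1, was at 12.2, 11.2 and 13.1 CPM in vector EtOH and 6.15, 6.35 and 8.01 in vector Dox. In JUN cells IFIT3 was at 16.5, 15.3 and 15.5 CPM with EtOH and 8.53, 8.60 and 8.53 with Dox. No EtOH and Dox groups overlapped. The decrease was a log2 fold change of -0.83 (SE 0.13, adjusted p = 0.000158) in vector cells and a log2 fold change of -0.88 (SE 0.12, adjusted p = 0.000138) in JUN cells. JUN raised it without induction (log2 fold change 0.37, SE 0.12, adjusted p = 0.025), a call lost without vector EtOH replicate 1 or 2 or JUN EtOH replicate 1 (adjusted p up to 0.0971).

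IFIT2, a pro-apoptotic member, fell from 4.29 ± 0.542 to 2.15 ± 0.868 CPM in vector cells (log2 fold change -0.995, SE 0.25, adjusted p = 0.0073). In JUN cells it was at 4.09, 3.33 and 3.47 CPM with EtOH and 1.71, 1.34 and 1.31 with Dox, a decrease of a log2 fold change of -1.33 (SE 0.26, adjusted p = 0.00228). IFIT1, which holds viral RNA with foreign caps, was low throughout, at 1.44, 1.45 and 2.60 CPM in vector EtOH and 0.698, 0.946 and 1.07 in vector Dox. Its decrease (log2 fold change -1.01, SE 0.34, adjusted p = 0.0375) was not called without vector EtOH replicate 3, vector Dox replicate 1, 2 or 3 or JUN Dox replicate 2 (adjusted p up to 0.201). In JUN cells IFIT1 went from 1.56 ± 0.620 to 1.36 ± 0.259 CPM and was not called (adjusted p = 0.704). IFIT2 and IFIT3 share a short stretch of exon with LIPA on the opposite strand.

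IFIT5 (chr10:91174325-91181362), the member that binds RNA with free phosphates and the one with the highest level per length, went the other way. It was at 24.1, 26.6 and 26.1 CPM in vector EtOH and 38.2, 35.8 and 37.2 in vector Dox, with no overlap (log2 fold change 0.53, SE 0.09, adjusted p = 0.000415). In JUN cells it was at 25.8, 27.5 and 29.4 CPM with EtOH and 34.0, 32.8 and 33.7 with Dox, again without overlap. That smaller difference (log2 fold change 0.28, SE 0.09, adjusted p = 0.0363) was not called with upper-quartile scaling, with no filter on low counts, with only those 2 groups fitted, or without vector EtOH replicate 3, vector Dox replicate 3, JUN EtOH replicate 1 or 2 or JUN Dox replicate 1, 2 or 3 (adjusted p up to 0.155). Apart from IFIT3 in uninduced cells, the IFIT genes were not called with JUN (0 of 4 in induced cells by edgeR or DESeq2, with 1 at an unadjusted p under 0.05). As edgeR called 35.6% of all genes in induced cells, 0 of 4 is no result about the family.

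The OAS enzymes make the oligoadenylates that switch on RNase L, and the tested 3 members were all lower with induction in vector cells. OASL (chr12:121455566-121477049), a catalytically inactive relative that assists RIG-I, was at 4.41, 4.99 and 4.04 CPM in vector EtOH and 0.785, 1.62 and 1.36 in vector Dox. In JUN cells OASL was at 3.17, 4.05 and 3.33 CPM with EtOH and 0.853, 1.73 and 2.203 with Dox. Every Dox library was below every EtOH library. Its decrease in vector cells (log2 fold change -1.83, SE 0.30, adjusted p = 0.000287) was the largest of the 37 genes, and in JUN cells it was a log2 fold change of -1.11 (SE 0.29, adjusted p = 0.013), a call lost without JUN EtOH replicate 2 (adjusted p = 0.0606).

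OAS1 (chr12:113343661-113371024) was at 6.996, 6.44 and 5.88 CPM in vector EtOH and 2.18, 2.34 and 2.31 in vector Dox (log2 fold change -1.497, SE 0.27, adjusted p = 0.000605). In JUN cells it was at 3.39, 4.51 and 3.94 CPM with EtOH and 1.104, 3.37 and 2.38 with Dox. The 3 vector Dox libraries were close together, while JUN Dox spread over a wide range, with replicate 1 lowest, and the decrease in JUN cells did not pass the test (adjusted p = 0.0555). Without induction OAS1 was lower with JUN (log2 fold change -0.71, SE 0.25, adjusted p = 0.0384), a call lost when any 1 of the 6 vector EtOH and JUN EtOH libraries was left out (adjusted p up to 0.14). OAS3, the member with the highest level per length (13.2 CPM per kilobase), was at 115, 87.9 and 102 CPM in vector EtOH and 48.4, 85.0 and 75.3 in vector Dox. Its decrease (log2 fold change -0.55, SE 0.17, adjusted p = 0.0275) was lost with only those 2 groups fitted and without vector EtOH replicate 1 or 3 or vector Dox replicate 1 (adjusted p up to 0.111), and in JUN cells it was 91.6 ± 11.72 and 84.8 ± 10.1 CPM with an adjusted p of 0.712. OAS2 had at most 13 counts in a library.

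In the ISG15 system, 0 of the 4 genes were called with induction in vector cells by edgeR, against 30.1% of all genes. Of the 4, 3 had an unadjusted p under 0.05 and 1 was called lower by DESeq2. A count of 0 of 4 is no result about the group. ISG15, a ubiquitin-like protein that is attached to other proteins, was at 8.10, 11.3 and 8.21 CPM in vector EtOH and 7.50, 4.28 and 5.45 in vector Dox. In JUN cells ISG15 was at 6.21, 5.14 and 8.17 CPM with EtOH and 3.31, 5.62 and 6.72 with Dox. In vector cells the Dox libraries were below the EtOH libraries, but replicate 1 was only just below, and the difference did not pass (log2 fold change -0.67, SE 0.26, adjusted p = 0.0606). USP18, the protease that removes ISG15 and dampens the type I receptor, was at 8.80 ± 1.71 and 11.2 ± 1.18 CPM in vector cells (adjusted p = 0.11). In JUN cells USP18 was at 7.35, 6.91 and 5.73 CPM with EtOH and 8.23, 9.47 and 9.91 with Dox (log2 fold change 0.47, SE 0.16, adjusted p = 0.0497), a call at the edge of the threshold that was lost without vector EtOH replicate 3, vector Dox replicate 2 or 3, JUN EtOH replicate 1, 2 or 3 or JUN Dox replicate 2 or 3, and with every alternative that kept all libraries except DESeq2 (adjusted p up to 0.175). The ISG15 ligase HERC5 and its relative HERC6 passed no test, with group means of 4.64 to 5.85 and 12.2 to 16.6 CPM. With JUN, 0 of the 4 genes were called by edgeR or DESeq2, with 1 at an unadjusted p under 0.05 in uninduced cells and 0 in induced cells. Beside the 39.0% and 35.6% of all genes called by edgeR, this too is no result about the group.

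Among the restriction factors, SAMD9 was called in all 4 pairwise comparisons. SAMD9 (chr7:92728826-92747336), a block to poxvirus replication, was at 31.6, 26.8 and 30.8 CPM in vector EtOH and 11.73, 15.5 and 17.4 in vector Dox. In JUN cells SAMD9 was at 54.3, 47.3 and 52.3 CPM with EtOH and 39.5, 39.4 and 39.4 with Dox. No pair of groups overlapped, and the order was JUN EtOH, JUN Dox, vector EtOH and vector Dox. JUN raised it 1.72-fold without induction (log2 fold change 0.79, SE 0.12, adjusted p = 0.00022) and 2.65-fold with induction (log2 fold change 1.40, SE 0.13, adjusted p = 1.26e-06). Induction lowered it in vector cells (log2 fold change -1.001, SE 0.13, adjusted p = 3.76e-05). In JUN cells the decrease was a log2 fold change of -0.38 (SE 0.12, adjusted p = 0.039), and the call was lost without vector EtOH replicate 1 or 3, JUN EtOH replicate 1, 2 or 3 or JUN Dox replicate 1, 2 or 3 (adjusted p up to 0.138).

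IFITM1 (chr11:310041-315272), which blocks the fusion of virus with the cell membrane, was lower with both. It was at 10.2, 13.1 and 11.71 CPM in vector EtOH and 7.81, 7.17 and 6.61 in vector Dox. In JUN cells IFITM1 was at 4.80, 6.28 and 6.15 CPM with EtOH and 3.36, 5.1 and 4.62 with Dox. Vector EtOH was above all other libraries, and the JUN EtOH and JUN Dox libraries overlapped. Induction lowered it in vector cells (log2 fold change -0.70, SE 0.17, adjusted p = 0.00518) and not by the test in JUN cells (adjusted p = 0.138). JUN lowered it without induction (log2 fold change -1.02, SE 0.17, adjusted p = 0.000302) and with it (log2 fold change -0.71, SE 0.17, adjusted p = 0.00558). IFITM1 is close in sequence to IFITM2 and IFITM3, and reads shared among them could not be separated here.

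ISG20, an RNA exonuclease, was at 1.56, 1.35 and 1.17 CPM in vector EtOH and 0.567, 0.451 and 0.454 in vector Dox. In JUN cells ISG20 was at 2.29, 1.94 and 2.49 CPM with EtOH and 0.502, 1.04 and 0.995 with Dox. It fell on induction in vector cells (log2 fold change -1.46, SE 0.32, adjusted p = 0.00278) and in JUN cells (log2 fold change -1.37, SE 0.28, adjusted p = 0.00272). Its higher level with JUN in uninduced cells (log2 fold change 0.71, SE 0.27, adjusted p = 0.0459) was not called by DESeq2, with no filter on low counts, with the replicate number as a block, or without vector EtOH replicate 1, 2 or 3, vector Dox replicate 2 or 3, JUN EtOH replicate 1, 2 or 3 or JUN Dox replicate 2 (adjusted p up to 0.141). MX1, the GTPase that traps viral capsids, was close to the detection limit at 0.803 ± 0.177 CPM in vector EtOH and 0.299 ± 0.145 in vector Dox, where its libraries held 8, 3 and 10 counts. The call for MX1 (log2 fold change -1.41, SE 0.50, adjusted p = 0.0441) was lost without vector EtOH replicate 1 or 3, vector Dox replicate 1, 2 or 3, JUN EtOH replicate 2 or JUN Dox replicate 2 or 3 (adjusted p up to 0.139), and it shares exon bases with TMPRSS2 on the opposite strand. BST2, which tethers budding virions and had the highest level per length of the group, was at 91.1, 134 and 108 CPM in vector EtOH and 118, 73.2 and 87.1 in vector Dox. In JUN cells BST2 was at 90.2, 98.5 and 91.1 CPM with EtOH and 69.2, 75.9 and 77.1 with Dox, and passed no test. The vector groups overlapped, and vector Dox replicate 1 was among the highest libraries.

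Of the other interferon-stimulated genes, IFI44L had the steepest gradient. IFI44L (chr1:79085587-79111830), a feedback regulator of the response, was at 10.2, 11.68 and 10.46 CPM in vector EtOH and 2.97, 4.33 and 4.17 in vector Dox. In JUN cells IFI44L was at 2.51, 2.78 and 2.77 CPM with EtOH and 1.05, 0.908 and 1.14 with Dox. The 4 groups were in this order without overlap. It fell with induction in vector cells (log2 fold change -1.49, SE 0.16, adjusted p = 7.74e-06) and in JUN cells (log2 fold change -1.37, SE 0.21, adjusted p = 0.000253), and with JUN in uninduced cells (log2 fold change -2.001, SE 0.17, adjusted p = 5.52e-07) and in induced cells (log2 fold change -1.88, SE 0.20, adjusted p = 4.96e-06). Its neighbour and relative IFI44 (chr1:79115481-79129763) was at 2.32 ± 0.599, 1.77 ± 0.636, 2.71 ± 0.569 and 2.22 ± 0.546 CPM and passed no test. IFI44L and IFITM1 were thus lower with JUN and lower with induction in vector cells, whereas SAMD9, STAT2 and IRF9 were higher with JUN and lower with induction.

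IFI6 (chr1:27992575-27998723), a small mitochondrial protein, rose with JUN. It was at 3.35, 4.09 and 3.59 CPM in vector EtOH and 4.36, 2.43 and 2.60 in vector Dox. In JUN cells IFI6 was at 6.25, 6.41 and 7.98 CPM with EtOH and 4.72, 5.66 and 5.69 with Dox. The JUN groups were above the vector groups throughout, with a log2 fold change of 0.91 (SE 0.21, adjusted p = 0.00339) in uninduced and a log2 fold change of 0.78 (SE 0.21, adjusted p = 0.0106) in induced cells, and IFI6 was not called on induction (adjusted p = 0.473 in vector and 0.236 in JUN cells). IFI27, a small protein of the nuclear envelope, was low, and only the JUN groups were above the level of the filter on low counts in all 3 libraries. It was at 0.418, 0.699 and 0.897 CPM in vector EtOH and 1.80, 1.47 and 1.22 in JUN EtOH (log2 fold change 1.17, SE 0.32, adjusted p = 0.0105), a call lost without vector EtOH replicate 1 or JUN EtOH replicate 1 (adjusted p up to 0.0562). With induction it was at 0.480, 0.406 and 0.330 CPM in vector cells and 0.903, 0.951 and 1.24 in JUN cells (log2 fold change 1.35, SE 0.36, adjusted p = 0.00891).

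IFI35, a partner of NMI and the gene of this group with the highest level per length, was at 9.39, 10.0 and 11.67 CPM in vector EtOH and 7.11, 5.27 and 5.78 in vector Dox. In JUN cells IFI35 was at 13.3, 12.2 and 14.5 CPM with EtOH and 9.28, 9.12 and 11.65 with Dox. Vector Dox was below the other 3 groups without overlap. IFI35 fell with induction in vector cells (log2 fold change -0.77, SE 0.15, adjusted p = 0.00144), and among induced cells it was higher with JUN (log2 fold change 0.73, SE 0.15, adjusted p = 0.00204). PARP9, an ADP-ribosyltransferase that works with DTX3L, followed a like course, from 24.7 ± 2.41 to 14.9 ± 2.82 CPM in vector cells (log2 fold change -0.73, SE 0.13, adjusted p = 0.00084) and at 20.6 ± 1.099 CPM in JUN Dox (log2 fold change 0.47, SE 0.13, adjusted p = 0.0147 against vector Dox, or adjusted p = 0.0519 with only those 2 groups fitted). In JUN cells neither IFI35 nor PARP9 was called on induction (adjusted p = 0.0598 and 0.0872).

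**Figure D3:**
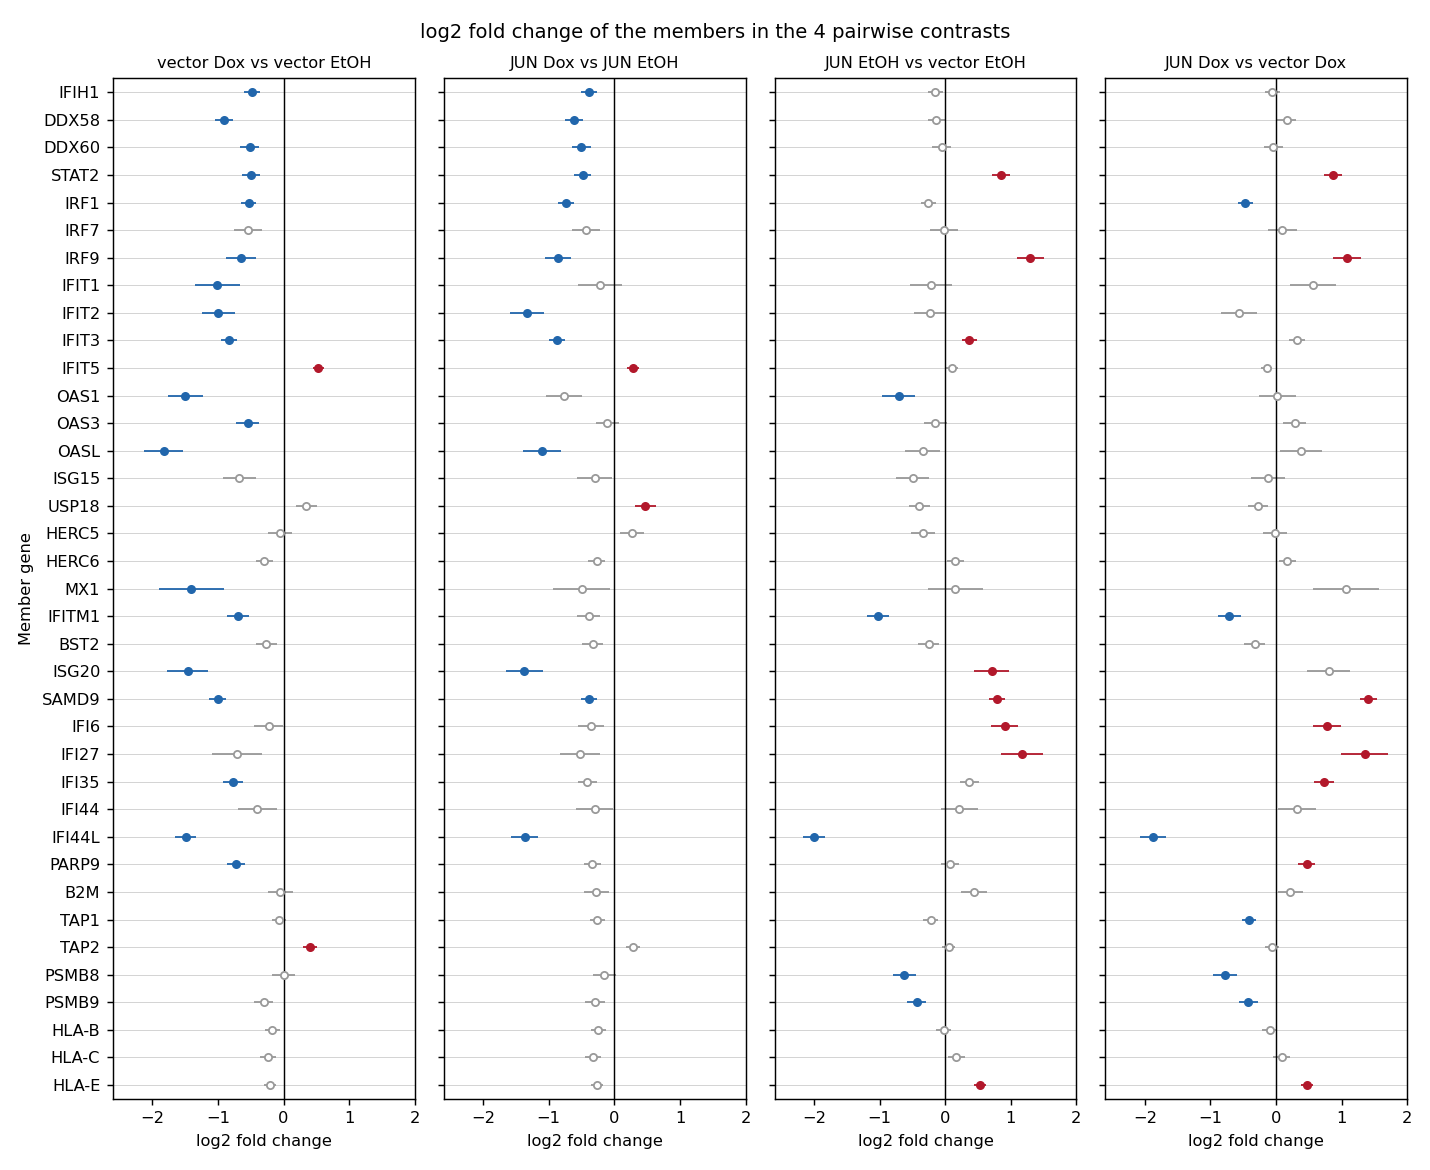
log2 fold change (points) with its SE (bars) of the 37 tested genes in the 4 pairwise comparisons, filled red where called higher, filled blue where called lower and open grey where not called. In vector Dox against vector EtOH 19 of 37 are called lower. There, the 8 antigen presentation genes at the bottom lie between -0.30 and 0.40, and of these only TAP2 is called. With JUN the called genes lie on both sides.

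Most of the 8 MHC class I and peptide supply genes did not pass the test on induction, as held for most of all tested genes. In vector cells 1 of 8 was called (12.5%), against 30.1% of all genes. It was TAP2, a subunit of the transporter that carries peptides into the endoplasmic reticulum. In JUN cells 0 of 8 were called by edgeR, against 21.4% of all genes. There, 4 had an unadjusted p under 0.05 and 2 were called lower by DESeq2. These counts over 8 genes are no result about the group. TAP2 (chr6:32789610-32806516) was at 154, 135 and 141 CPM in vector EtOH and 199.6, 188 and 179 in vector Dox, with no overlap (log2 fold change 0.40, SE 0.10, adjusted p = 0.00936). In JUN cells it was at 153, 152 and 141 CPM with EtOH and 205, 178 and 159 with Dox (adjusted p = 0.0699). TAP1, the other subunit of the peptide transporter, was at 89.5, 82.8 and 81.2 CPM in vector EtOH and 74.96, 86.4 and 80.6 in vector Dox. In JUN cells TAP1 was at 68.3, 72.6 and 76.6 CPM with EtOH and 49.8, 64.9 and 66.9 with Dox. Among induced cells TAP1 was lower with JUN (log2 fold change -0.41, SE 0.11, adjusted p = 0.0103), but not when only those 2 groups were fitted (adjusted p = 0.0549).

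HLA-B (chr6:31321649-31334844), the heavy chain with the highest level per length, was at 905, 978 and 869.7 CPM in vector EtOH and 921, 803 and 722 in vector Dox. In JUN cells HLA-B was at 871, 941 and 899 CPM with EtOH and 711, 831 and 749 with Dox. It passed no test, with a log2 fold change of -0.17 ± 0.12 (SE) on induction in vector cells and -0.02 ± 0.12 with JUN in uninduced cells. B2M was at 378, 447 and 359.7 CPM in vector EtOH and 519, 329.6 and 295 in vector Dox. In JUN cells B2M was at 542, 591 and 476 CPM with EtOH and 507, 478 and 345 with Dox. Its vector Dox libraries spread from the lowest to the third highest value of the 12, with replicate 1 at the top, and it passed no test. HLA-C was at 335 ± 26.6, 285 ± 48.2, 377 ± 11.8 and 302 ± 28.0 CPM and was not called either. In vector Dox, replicate 1 was the highest library for 7 of these 8 genes and for 21 of the 37, and without it 21 genes were called in vector cells, 18 of them among the 21 called with it. Reads of HLA genes can fit more than 1 of them, so that the split among HLA-B, HLA-C and HLA-E is uncertain.

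With JUN, the immunoproteasome subunits and HLA-E went in opposite directions. The decrease was not confined to the immunoproteasome, as PSMB6 and PSMB5 of the standard proteasome, given below, were called lower too. HLA-E (chr6:30457286-30461971), the class I molecule read by natural killer cells, was at 115, 122 and 122 CPM in vector EtOH and 105, 105 and 103 in vector Dox. In JUN cells HLA-E was at 164, 173 and 182 CPM with EtOH and 129, 153 and 151 with Dox. All JUN libraries were above all vector libraries (log2 fold change 0.53, SE 0.09, adjusted p = 0.000457 uninduced, log2 fold change 0.47, SE 0.09, adjusted p = 0.00115 induced). PSMB8 (chr6:32808494-32812456), an immunoproteasome subunit that shapes peptides for MHC class I, was at 67.1, 98.9 and 80.2 CPM in vector EtOH and 103, 68.4 and 74.7 in vector Dox. In JUN cells PSMB8 was at 48.4, 52.4 and 59.0 CPM with EtOH and 38.0, 50.6 and 54.8 with Dox. All JUN libraries were below all vector libraries (log2 fold change -0.62, SE 0.18, adjusted p = 0.0121 uninduced, log2 fold change -0.78, SE 0.18, adjusted p = 0.00344 induced), and the first call was lost without vector EtOH replicate 2 or JUN EtOH replicate 1 (adjusted p up to 0.0708).

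PSMB9, the neighbouring subunit, went from 14.1 ± 1.21 to 10.4 ± 1.07 CPM with JUN in uninduced cells (log2 fold change -0.43, SE 0.15, adjusted p = 0.0315) and from 11.4 ± 1.01 to 8.501 ± 1.73 in induced cells (log2 fold change -0.42, SE 0.15, adjusted p = 0.0414). The first call was lost without vector EtOH replicate 2 or 3 or JUN EtOH replicate 1 or 3 (adjusted p up to 0.132) and the second with no filter on low counts, with only those 2 groups fitted, or without vector EtOH replicate 1, 2 or 3, vector Dox replicate 1 or 3, JUN EtOH replicate 3 or JUN Dox replicate 1 or 2 (up to 0.16). PSMB8 and PSMB9 share 139 exon bases on opposite strands, and both share exon bases with PSMB8-AS1, so their reads may overlap.

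The other genes of the pathway were read from lists that had been drawn up with earlier results of these data known, and 89 of 132 listed genes were tested. Another gene on the same strand overlaps exons here too, by 2038 bases in IFNAR2 and 1732 in IL10RB. The overlap is 678 bases in TLR4, 647 in JAK1, 640 in PSMB10 and 621 in GBP2, so the levels of such genes are uncertain. With induction in vector cells 3 of the 89 were called higher and 35 lower, and in JUN cells 1 higher and 31 lower, with medians of -0.25 and -0.22. With JUN 25 were called higher and 12 lower in uninduced cells, and 28 higher and 11 lower in induced cells, with medians of 0.12 and 0.08. Lower on induction were 39.3% in vector cells, against 14.4% of all genes, and 34.8% in JUN cells, against 10.3%. With JUN 41.6% were called in uninduced cells, against 39.0% of all genes, and 43.8% in induced cells, against 35.6%. The shares higher with JUN were 28.1% and 31.5%, against 20.1% and 18.4%. Counts called with JUN near the shares over all genes are no result about a list as a whole.

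The ligands themselves were at or near the limit of detection. Of 22 interferon genes, 19 had 0 counts in all 12 libraries, which at this depth allows up to 0.107 to 0.150 CPM per library. IFNK, an epithelial type I interferon, had 11 counts in all, IFNE 8 and IFNL1 2. None was tested.

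Of the 6 receptor chains, 4 were called lower and 0 higher on induction in each background, while with JUN 3 were called higher and 1 lower in uninduced and 4 higher and 2 lower in induced cells. On induction 66.7% were lower, against 14.4% of all genes in vector and 10.3% in JUN cells. With JUN 66.7% were called in uninduced cells, against 39.0%, and 100% in induced cells, against 35.6%. IFNGR1, the binding chain for interferon gamma, was at 65.9, 68.0 and 59.3 CPM in vector EtOH and 31.3, 26.6 and 23.4 in vector Dox. In JUN cells IFNGR1 was at 95.8, 97.8 and 78.2 CPM with EtOH and 53.2, 45.5 and 34.4 with Dox. It fell on induction in vector cells (log2 fold change -1.25, SE 0.15, adjusted p = 2.31e-05) and in JUN cells (log2 fold change -1.03, SE 0.15, adjusted p = 0.000199), and every EtOH library was above every Dox library. With JUN it was higher in induced cells (log2 fold change 0.71, SE 0.15, adjusted p = 0.00249) and in uninduced cells (log2 fold change 0.49, SE 0.15, adjusted p = 0.0173), the latter not without vector EtOH replicate 3 or JUN EtOH replicate 1 or 2 (adjusted p up to 0.0692).

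IFNLR1, the specific chain for type III interferon that epithelia carry, went the other way with JUN. It was at 5.13, 3.14 and 2.92 CPM in vector EtOH and 1.89, 1.47 and 1.36 in JUN EtOH (log2 fold change -1.25, SE 0.25, adjusted p = 0.0014), and at 4.71, 4.46 and 4.46 CPM in vector Dox and 1.71, 1.08 and 1.17 in JUN Dox (log2 fold change -1.80, SE 0.25, adjusted p = 7.72e-05). Its partner chain IL10RB fell on induction, from 46.0 ± 1.47 to 28.9 ± 0.433 CPM in vector cells (log2 fold change -0.67, SE 0.08, adjusted p = 2.4e-05) and less in JUN cells by the point estimate (log2 fold change -0.48, SE 0.08, adjusted p = 0.000725). IFNGR2 fell from 76.9 ± 4.65 to 49.3 ± 1.61 CPM in vector cells (log2 fold change -0.64, SE 0.11, adjusted p = 0.000653) and in JUN cells (log2 fold change -0.77, SE 0.12, adjusted p = 0.000262). The type I receptor chain IFNAR2 was higher with JUN (log2 fold change 0.53, SE 0.11, adjusted p = 0.0021 uninduced, log2 fold change 0.48, SE 0.11, adjusted p = 0.00479 induced).

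Of 12 kinases, STATs and feedback genes, 4 were called higher with JUN in uninduced and 5 in induced cells, with 0 lower. These shares called, 33.3% and 41.7%, were near the 39.0% and 35.6% over all genes. SOCS1, the feedback inhibitor of JAK kinases, had 20, 17 and 6 counts in the vector EtOH libraries and 1, 0 and 2 in vector Dox. Its JUN cell libraries held 194, 172 and 163 counts with EtOH and 66, 63 and 70 with Dox. In CPM it was 0.626 ± 0.312, 0.0421 ± 0.0413, 7.81 ± 0.660 and 2.84 ± 0.424, so that vector Dox was at the floor and no fold against it is given. Only the JUN groups were above the level of the filter on low counts in all 3 libraries. SOCS1 thus entered the test through the groups where it was high, which limits what its JUN comparison shows. With that limit, SOCS1 was higher with JUN in uninduced cells (log2 fold change 3.63, SE 0.30, adjusted p = 4.04e-07). Within JUN cells induction lowered it (log2 fold change -1.47, SE 0.25, adjusted p = 0.000627). Its relative SOCS3 was at 16.1, 16.2 and 15.2 CPM in vector EtOH and 9.11, 10.7 and 10.2 in vector Dox. In JUN cells SOCS3 was at 36.7, 30.0 and 27.5 CPM with EtOH and 20.9, 25.4 and 24.7 with Dox. All JUN libraries were above all vector libraries, with a log2 fold change of 0.99 (SE 0.12, adjusted p = 2.61e-05) uninduced and a log2 fold change of 1.24 (SE 0.13, adjusted p = 3.69e-06) induced. The decrease of SOCS3 on induction was a log2 fold change of -0.66 (SE 0.13, adjusted p = 0.0013) in vector cells and a log2 fold change of -0.41 (SE 0.12, adjusted p = 0.0254) in JUN cells, the latter lost without JUN EtOH replicate 1 or 2 or JUN Dox replicate 1 (adjusted p up to 0.154). The receptor kinase JAK1 rose with JUN from 89.4 ± 8.37 to 142 ± 11.8 CPM (log2 fold change 0.67, SE 0.13, adjusted p = 0.000854) and was higher in induced cells too (log2 fold change 0.69, SE 0.13, adjusted p = 0.000707). PTPN6, a phosphatase that opposes JAK signalling, fell on induction in vector cells (log2 fold change -0.94, SE 0.15, adjusted p = 0.00029) and in JUN cells (log2 fold change -0.65, SE 0.15, adjusted p = 0.00669).

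**Figure D4:**
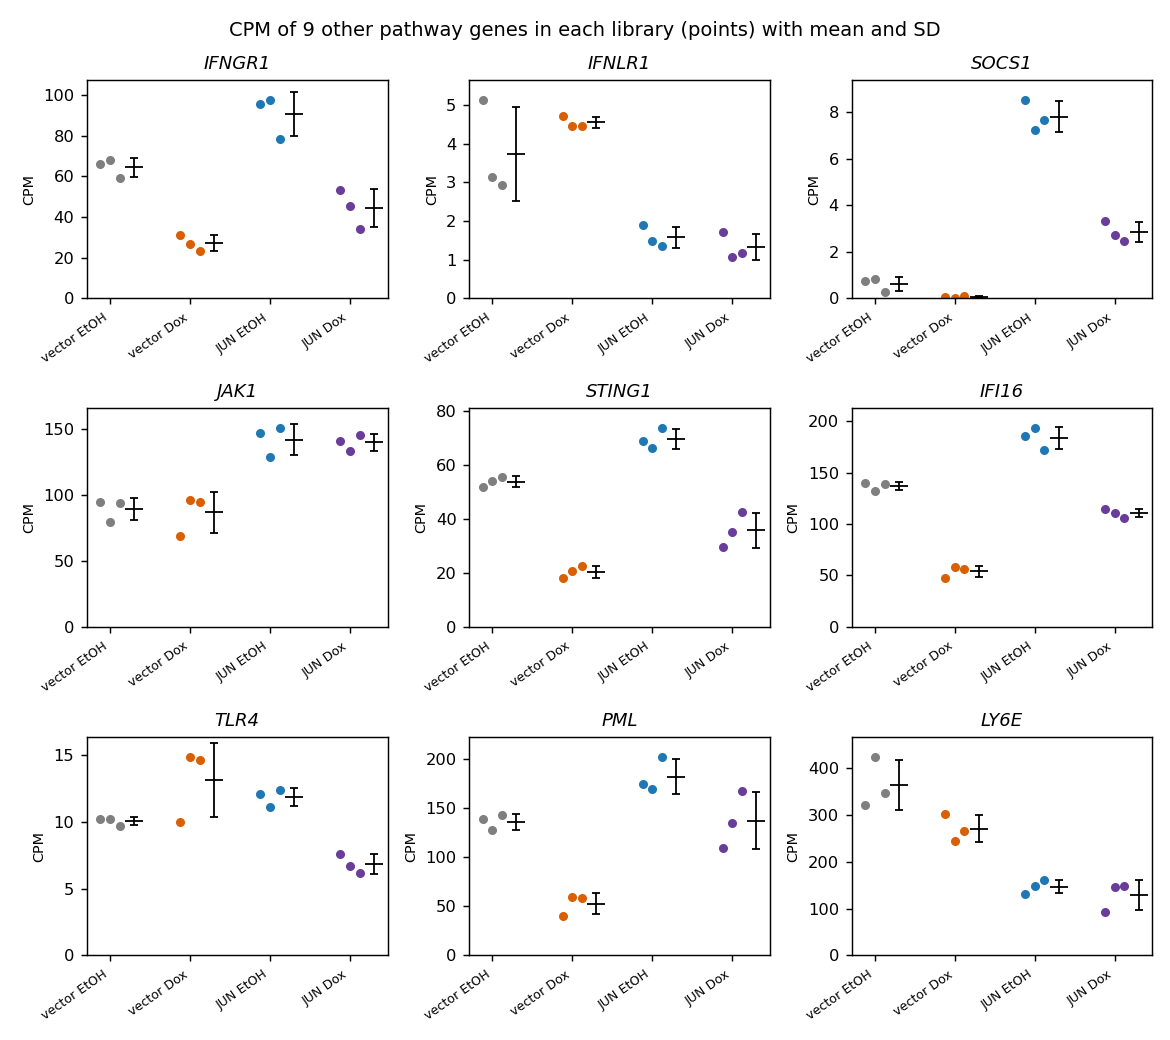
CPM of 9 pathway genes outside the list of 41 in each library (points, coloured by group, each panel starting at 0), with mean and SD of the 3 libraries of a group. IFNGR1, STING1, IFI16 and PML are lowest in vector Dox, SOCS1 is near 0 there and highest in JUN EtOH, JAK1 is higher in the JUN groups, and IFNLR1 and LY6E are lower in the JUN groups.

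Among 14 tested genes of nucleic acid sensing, 6 were called lower and 1 higher on induction in vector cells, and 8 lower and 1 higher in JUN cells. The shares lower were 42.9% and 57.1%, against 14.4% and 10.3% of all genes. STING1, the adaptor of cytosolic DNA sensing, was at 51.8, 54.1 and 55.6 CPM in vector EtOH and 18.3, 20.6 and 22.7 in vector Dox. In JUN cells STING1 was at 68.8, 66.5 and 73.7 CPM with EtOH and 29.6, 35.2 and 42.4 with Dox. It fell on induction (log2 fold change -1.39, SE 0.13, adjusted p = 1.09e-06 in vector and log2 fold change -0.96, SE 0.12, adjusted p = 6.15e-05 in JUN cells) and was higher with JUN in induced cells (log2 fold change 0.80, SE 0.13, adjusted p = 0.00019). IFI16, a nuclear DNA sensor, was at 139.5, 132 and 139 CPM in vector EtOH and 47.8, 57.9 and 56.2 in vector Dox. In JUN cells IFI16 was at 185, 193 and 172 CPM with EtOH and 115, 111 and 106 with Dox. The 4 groups of IFI16 did not overlap, with a log2 fold change of -1.35 (SE 0.10, adjusted p = 8.31e-08) on induction in vector cells and a log2 fold change of 1.04 (SE 0.09, adjusted p = 1.2e-06) with JUN in induced cells. The endosomal RNA sensor TLR3 fell from 9.05 ± 0.829 to 3.84 ± 1.33 CPM in vector cells (log2 fold change -1.24, SE 0.21, adjusted p = 0.000494), and in JUN cells (log2 fold change -0.83, SE 0.20, adjusted p = 0.0089), a call lost without JUN EtOH replicate 2 (adjusted p = 0.0571). With JUN, 8 of the 14 (57.1%) were called higher and 0 lower in uninduced cells, against 20.1% and 18.9% of all genes. The Toll-like receptor adaptor MYD88 was among those 8 (log2 fold change 0.63, SE 0.11, adjusted p = 0.000377).

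Of the further IRF genes, IRF2, which competes with IRF1, fell on induction in both backgrounds (log2 fold change -0.44, SE 0.10, adjusted p = 0.00492 in vector and log2 fold change -0.50, SE 0.10, adjusted p = 0.00296 in JUN cells), and IRF5 was lower with JUN in uninduced cells (log2 fold change -0.49, SE 0.14, adjusted p = 0.0135).

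Of 32 further interferon-stimulated genes tested, 13 were called lower and 1 higher on induction in vector cells and 8 lower and 0 higher in JUN cells. The shares lower were 40.6% and 25.0%, against 14.4% and 10.3% of all genes. GBP2, an interferon gamma-induced GTPase, was at 6.996, 8.53 and 6.10 CPM in vector EtOH and 2.83, 1.80 and 1.65 in vector Dox. In JUN cells GBP2 was at 12.2, 12.7 and 13.6 CPM with EtOH and 3.56, 5.19 and 6.08 with Dox. It fell on induction in vector cells (log2 fold change -1.78, SE 0.23, adjusted p = 3.76e-05) and in JUN cells (log2 fold change -1.36, SE 0.21, adjusted p = 0.000263). PML, which organises nuclear bodies, was at 139, 127 and 143 CPM in vector EtOH and 40.4, 59.6 and 58.2 in vector Dox. In JUN cells PML was at 174, 169 and 202 CPM with EtOH and 109, 135 and 167 with Dox. Vector Dox was far below the other groups (log2 fold change -1.37, SE 0.16, adjusted p = 1.6e-05 against vector EtOH, and log2 fold change 1.38, SE 0.16, adjusted p = 1.34e-05 for JUN Dox against vector Dox).

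With JUN, 8 of the 32 were called higher and 6 lower in uninduced cells, and 10 higher and 5 lower in induced cells. That was 43.8% called, near the 39.0% over all genes, in uninduced cells and 46.9% against 35.6% in induced cells. SAMD9L, the neighbour and relative of SAMD9, was at 2.93, 1.20 and 1.66 CPM in vector EtOH and 5.90, 6.28 and 6.10 in JUN EtOH (log2 fold change 1.63, SE 0.27, adjusted p = 0.000331). It was at 0.785, 1.17 and 1.49 CPM in vector Dox and 5.72, 5.14 and 4.05 in JUN Dox (log2 fold change 2.10, SE 0.29, adjusted p = 6.86e-05). LY6E, a surface protein that limits coronavirus entry, was at 322, 425 and 346 CPM in vector EtOH and 303, 245 and 265 in vector Dox. In JUN cells LY6E was at 132, 148 and 161 CPM with EtOH and 92.0, 145 and 148 with Dox. It was lower with JUN in uninduced cells (log2 fold change -1.31, SE 0.17, adjusted p = 3.3e-05). LAMP3, a lysosomal membrane protein, was also lower with JUN (log2 fold change -1.43, SE 0.33, adjusted p = 0.00376 uninduced, log2 fold change -1.52, SE 0.31, adjusted p = 0.00165 induced).

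Of 20 further MHC class I genes, 5 were called lower and 0 higher on induction in each background. The share lower was 25.0% in each, against 14.4% of all genes in vector and 10.3% in JUN cells. The share called in either direction, also 25.0%, was near the 30.1% and 21.4% over all genes. NLRC5, the transactivator of MHC class I genes, went from 12.1, 10.9 and 10.8 CPM in vector EtOH to 4.62, 7.66 and 6.49 in vector Dox (log2 fold change -0.85, SE 0.16, adjusted p = 0.00119). RFX5, which recruits it to promoters, went from 47.2, 47.6 and 45.6 to 24.1, 27.3 and 27.1 CPM (log2 fold change -0.84, SE 0.09, adjusted p = 6.11e-06), and in JUN cells it was at 45.7, 41.8 and 45.5 CPM with EtOH and 35.2, 32.9 and 33.5 with Dox (log2 fold change -0.39, SE 0.09, adjusted p = 0.00579). The peptide editor tapasin (TAPBP) fell on induction in vector cells (log2 fold change -0.52, SE 0.14, adjusted p = 0.0108) and in JUN cells (log2 fold change -0.51, SE 0.14, adjusted p = 0.0156). The second call was lost without JUN EtOH replicate 2 or JUN Dox replicate 1 (adjusted p up to 0.0567). TAPBP was higher with JUN (log2 fold change 0.54, SE 0.14, adjusted p = 0.00665 uninduced, log2 fold change 0.55, SE 0.14, adjusted p = 0.00673 induced). PSMB10, the remaining immunoproteasome subunit, was at 32.0, 40.6 and 30.8 CPM in vector EtOH and 18.0, 19.9 and 24.3 in JUN EtOH (log2 fold change -0.73, SE 0.17, adjusted p = 0.00429), and was lower with JUN in induced cells too (log2 fold change -0.88, SE 0.17, adjusted p = 0.00132). The standard proteasome subunit PSMB6 was lower with JUN in uninduced cells (log2 fold change -0.60, SE 0.16, adjusted p = 0.00811). That call was lost without vector EtOH replicate 2 (adjusted p = 0.0504). PSMB5 was lower with JUN in induced cells (log2 fold change -0.48, SE 0.15, adjusted p = 0.0187). Its call was lost with only those 2 groups fitted or without vector Dox replicate 1 or JUN Dox replicate 1 (adjusted p up to 0.092). Of 10 MHC class II genes 1 was tested, HLA-DMA, and it was not called in any comparison (edgeR, adjusted p between 0.184 and 0.963).

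The last comparison asked whether induction acted differently in JUN cells and in vector cells, as the difference of the log2 fold changes. By edgeR 0 of the 37 genes were called, against 1.12% of all genes (0.291% higher, 0.826% lower). By DESeq2 0 were called against 2.23% of all genes (0.709% higher, 1.52% lower). At an unadjusted p under 0.05 there was 1 gene, SAMD9, against 9.0% of all genes. SAMD9 fell less in JUN cells by 0.62 ± 0.18 (SE) on the log2 scale, which did not pass the adjustment (adjusted p = 0.141). The median difference over the 37 genes was 0.09 against 0.01 over all genes tested. Some of the low genes had differences of similar or greater size with wide errors, such as OASL with 0.72 ± 0.42 and OAS1 with 0.73 ± 0.38, so that a difference of that size was not detectable at these counts. Among the 89 other pathway genes 2 were called (2.25%), against 1.12% of all genes, which is no result about the lists. TLR4, the endotoxin receptor, was at 10.2, 10.2 and 9.74 CPM in vector EtOH and 9.99, 14.9 and 14.6 in vector Dox. In JUN cells TLR4 was at 12.1, 11.1 and 12.4 CPM with EtOH and 7.63, 6.70 and 6.15 with Dox, below all other libraries, with a difference of -1.19 ± 0.21 (adjusted p = 0.0103). IFI16 fell less in JUN cells, by 0.62 ± 0.13 (adjusted p = 0.0337), a call that was lost without vector EtOH replicate 1, 2 or 3, vector Dox replicate 3, JUN EtOH replicate 1, 2 or 3 or JUN Dox replicate 2 (adjusted p up to 0.111).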

How the data were processed

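Poly(A) RNA of 12 libraries was sequenced by the authors as single-end 75 bp reads, trimmed with Cutadapt (4.2 in the submitters' processing notes), aligned with Bowtie2 (2.3.5.1 in those notes) to hg19 and counted per gene with countOverlaps of GenomicRanges. The deposited values are raw counts per gene. The annotation and the use of strand are not given in the sources used here, and reads over exon junctions are mostly lost by an aligner that does not splice. The study calls the 3 libraries of a group biological replicates.

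Counts were fitted with edgeR 4.0.16 in R 4.3.3 (TMM, filterByExpr with a minimum count of 10 and a minimum total of 15, robust quasi-likelihood) over all 4 groups, and p-values were adjusted by Benjamini-Hochberg over 14775 genes, with a call at an adjusted p under 0.05. SEs were taken from the fold change and its F statistic (the absolute value over the root of F). The script was tested on simulated data. DESeq2 1.42.0, other scaling factors, no filter, fewer libraries and a replicate block were alternatives. Total counts were 18594867 to 28993487, and the floor of 3 counts covers counting error only, whereas SDs and SEs hold the spread between libraries.

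The genes and lists were chosen with earlier results of these data known. Genes were named by a rule: in each pairwise comparison up to 5 called genes per direction with the largest change and a mean of at least 1 CPM, the gene with the highest CPM per kilobase in each role, and up to 3 called genes per pathway list. Other members are given so that each is accounted for, and HLA-DMA was named outside the rule after its values were seen. Not every gene that the rule names is reported here. Positions come from GENCODE (GRCh37), lengths from MANE Select transcripts and promoters from RefSeq (GRCh38.p14). Of the 41 genes, 18 share exon bases with another gene.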

Additional observations from a re-analysis of the deposited data

Results flagged for a closer look

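The effect of induction differed between JUN cells and vector cells by the test of the difference itself in 2 genes, both from the nucleic acid sensing list and neither among the 41 genes. They were 2 of the 89 tested pathway genes (2.25%), against 1.12% of all genes. For TLR4 the log2 fold change on induction was lower in JUN cells than in vector cells by -1.19 (SE 0.21, edgeR, adjusted p = 0.0103). The call was kept under all alternatives, with adjusted p up to 0.0414. TLR4 shares 678 exon bases with another gene on the same strand, so its level is uncertain. For IFI16 the difference was 0.62 (SE 0.13, adjusted p = 0.0337), since the decrease in JUN cells was smaller, and it was lost when any 1 of 8 libraries was left out (adjusted p up to 0.111). With DESeq2 the adjusted p was 9.13e-05 for TLR4 and 0.000522 for IFI16. The cause was not tested.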

How the results depend on the processing

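Of 62 calls among the 37 genes, 40 passed under each of the 18 alternatives, 22 were lost under at least 1, and none changed direction. Calls were lost to DESeq2 (1), RLE factors (1), upper-quartile factors (2), no filter on low counts (4), a fit of only the compared libraries (7) and the replicate block (2). When each library was left out in turn, the number called was 17 to 24 for induction in vector cells, 7 to 15 for JUN in uninduced cells, 7 to 20 for induction in JUN cells, 13 to 15 for JUN in induced cells and 0 to 0 for the difference between the inductions. Over the same omissions the median difference between the inductions was -0.0068 to 0.14, below 0 without JUN Dox replicate 3. Same-numbered libraries had correlations of their deviations from -0.26 to 0.47 over 18 pairs, 7 of them over 0.1. Differently numbered libraries had correlations from -0.47 to 0.31. These values do not settle whether the numbers pair the libraries. With the replicate block the numbers called were 21, 14, 17, 14 and 0. Low genes such as MX1 and IFIT1 rest on few counts, and small differences there were not detectable at this depth.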
